A study of Homo sapiens with 4 samples.

Results

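Epithelial junction and polarity genes encode the proteins that hold neighbouring epithelial cells together and set their apical and basal sides. The list covered here has 38 members, fixed by name as tight junction, adherens junction and desmosome genes, EPCAM, polarity scaffolds and transcription or splicing regulators of epithelial cells. Of these, 35 had at least 1 probe set annotated to that gene alone, out of 19775 such genes on the array, and together they had 86 probe sets. F11R, CTNND1 and ESRP2 had none and are not analysed here. For each gene the probe set with the highest mean was used, and 33 members were bright enough to enter the test of 13842 genes. CLDN1 and DSC3 were dim and are given by their values from a fit of all genes.

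The genes were measured in BT474, an established breast cancer line of human origin that carries an ERBB2 amplification, on Affymetrix U133 Plus 2.0 arrays. The compared groups were cells kept for 24 h with 0.5 mM AICAR, a nucleoside that is turned into an AMP mimic in cells and activates the kinase AMPK, and cells kept for 24 h with vehicle, each on 2 arrays. Both groups are 1 cell line grown in dishes in DMEM, and no label states that the 2 arrays of a group are separate cultures. The p-values therefore rest on the spread between these arrays, and that spread may be technical. All values are log2 expression as deposited, and all differences are AICAR minus vehicle on the log2 scale.

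Tight junctions seal the gap between cells near their apical side. Claudins and occludin form the seal, and scaffold proteins of the zonula occludens family tie it to actin. Adherens junctions join cells through cadherins and nectins, which are linked to actin by catenins and afadin, while desmosomes join the keratin filaments of neighbouring cells through desmosomal cadherins, plakophilins, plakoglobin and plakins. AMPK has been linked to the assembly of tight junctions and to polarity in kidney epithelial cells, which is why a list of this kind is of interest with an AMPK activator.

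The arrays were checked against markers of cell types. All 10 luminal markers listed, among them the keratins KRT8, KRT18 and KRT19, lay over the bound for dim genes. Of the 10 luminal markers 0 rose and 2 fell, against 4.63% and 5.19% of all tested genes. The 2 that fell were MUC1 (log2 -0.47, limma adjusted p = 0.0223) and ESR1 (log2 -0.31, limma adjusted p = 0.0411). Averaged over their probe sets neither passed, with MUC1 at -0.22 (limma adjusted p = 0.0753) and ESR1 at -0.039 (0.773). Here and below such averages take in every probe set annotated to the gene alone, also dim ones, which can pull a difference towards 0. Their part in the results was not tested. Of 7 fibroblast markers 3 were over the bound, with a median difference of 0.015. Of these, 1, COL1A1, fell by 0.63 (limma adjusted p = 0.0209), where 5.19% of all tested genes fell. That call was lost when the 5 probe sets of COL1A1 were averaged (limma adjusted p = 0.0727). Of 6 basal epithelial markers 2 were over the bound and 0 passed. The 5 endothelial and 6 blood cell markers had 2 and 3 genes over the bound, and 0 of these passed. Across the 54675 probe sets the medians of the arrays were 6.40 and 6.38 with AICAR, against 6.37 and 6.38 with vehicle.

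Most of the junction program stayed close to its vehicle level. With AICAR 1 of the 33 tested members rose, the plakin PPL, and 0 fell (limma adjusted p under 0.05), where 4.63% of all tested genes rose and 5.19% fell. With no adjustment, at p under 0.05, 3 members were higher and 5 lower, against 12.8% and 13.3% of all tested genes. The members' differences ran from -0.23 to 0.42, with 19 positive and 14 negative and a median of 0.069, beside a median of 0.0097 over all genes tested. For 29 of the 33 members the 95% confidence interval lay within 0.5 of 0 on the log2 scale, which also held for 85.8% of all tested genes. Both AICAR values lay above both vehicle values in 12 members and below them in 8, against 28.5% and 28.0% of all tested genes. These shares are near the background, so the counts show nothing particular to junction genes.

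**Figure D1:**
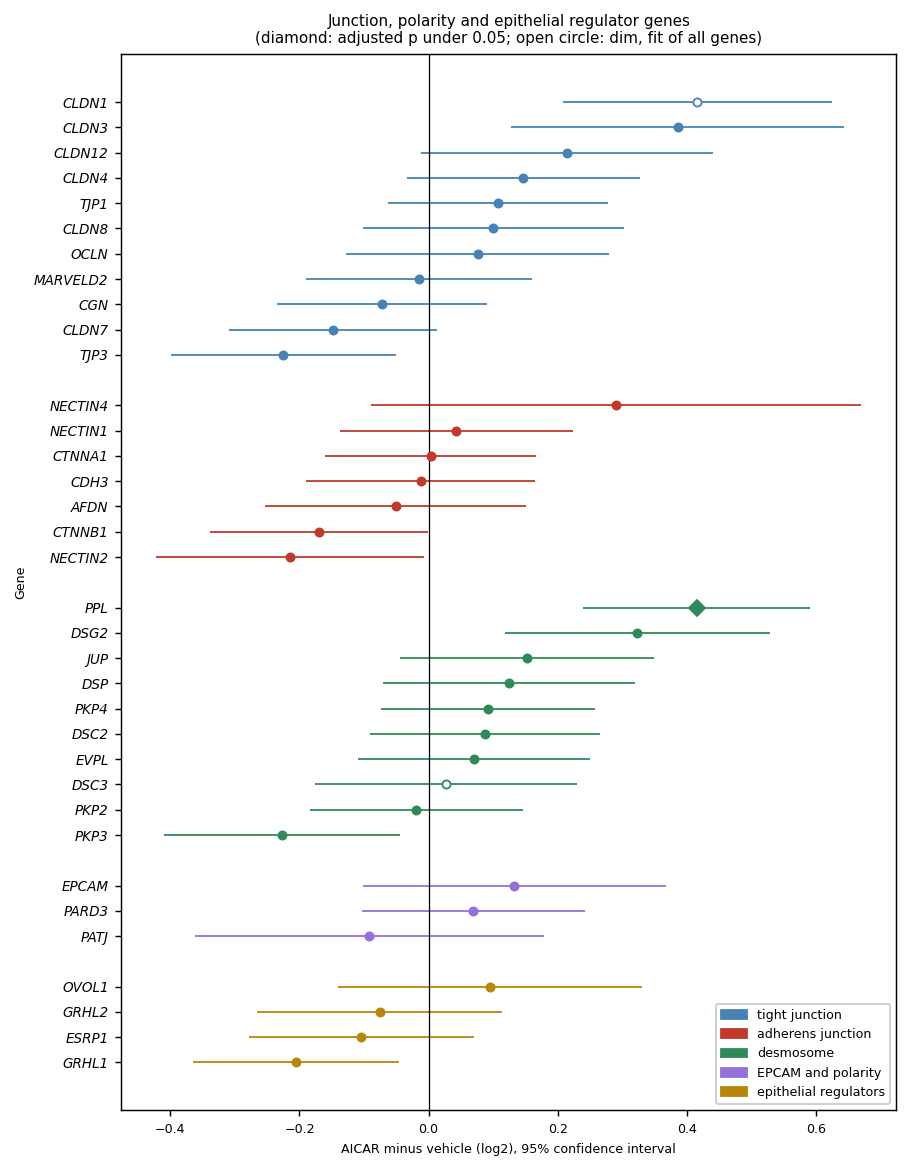
AICAR minus vehicle difference (log2, horizontal axis) of each of 35 genes, grouped by junction or role from top to bottom, with the 95% confidence interval of the limma fit as a bar. PPL is the only diamond, a gene past the adjusted threshold, at 0.42, and the 2 open circles are the dim genes CLDN1 and DSC3.

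The desmosome held the one member that rose. PPL, periplakin, which links desmosomes and the cell cortex to keratin filaments, had 9.16 and 9.20 with AICAR, against 8.82 and 8.71 with vehicle. Both AICAR arrays were higher than both vehicle arrays, with a gap between the groups wider than the spread within either. The rise was 1.33-fold (log2 0.42, SE 0.0733, limma adjusted p = 0.0232). It did not pass without AICAR replicate 2 (limma adjusted p = 0.0665), without vehicle replicate 1 (0.0957) or without vehicle replicate 2 (0.137), while its difference stayed between 0.36 and 0.47. EVPL, the related envoplakin, which pairs with periplakin in the cornified envelope of skin, had 6.88 and 6.89 with AICAR, against 6.75 and 6.88 with vehicle. That gave a difference of 0.070 (95% confidence interval -0.11 to 0.25), so the plakins PPL and EVPL were not both called.

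DSG2, the desmosomal cadherin of simple epithelia, had 11.68 and 11.87 with AICAR, against 11.45 and 11.46 with vehicle. The groups did not overlap, and AICAR replicate 2 lay further from vehicle than AICAR replicate 1. The difference of 0.32 (95% confidence interval 0.12 to 0.53) had a limma adjusted p of 0.0653 and did not pass, though it did after quantile normalization (0.0359). Its other probe set went the other way, at -0.10. The partner cadherin DSC2 differed by 0.088 (-0.091 to 0.27), and DSC3, a cadherin of stratified epithelia, was dim at 4.23 and 4.18 with AICAR, against 4.25 and 4.11 with vehicle.

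Of the plaque proteins DSP, JUP, PKP2, PKP3 and PKP4, none passed the threshold on the brightest probe set. DSP, desmoplakin, which anchors keratin filaments to the plaque, had 13.25 and 13.42 with AICAR, against 13.21 and 13.22 with vehicle, a difference of 0.12 (95% confidence interval -0.070 to 0.32). JUP, plakoglobin, the catenin shared by desmosomes and adherens junctions, differed by 0.15 (-0.045 to 0.35), PKP4 by 0.092 (-0.074 to 0.26) and PKP2 by -0.019 (-0.18 to 0.15). PKP3, the plakophilin that binds the widest set of desmosomal proteins, had 8.95 and 8.97 with AICAR, against 9.25 and 9.12 with vehicle. Its difference, the lowest among the tested desmosome genes, was -0.23 (-0.41 to -0.044, limma adjusted p = 0.120), and its groups did not overlap. Over the 9 tested desmosome genes 7 differences were positive and 2 negative, with a median of 0.092. Both AICAR values were above both vehicle values in 7 of the 9 and below them in 1, where 28.5% and 28.0% of all tested genes did so. This count was not tested, and it rests on the brightest probe set of each gene. For EVPL the nearest arrays were at 6.880 with AICAR and 6.876 with vehicle. DSG2, DSC2 and PKP4 each had another probe set with a negative difference, at -0.10, -0.12 and -0.68. The remaining probe sets of DSC2 and PKP4 over the bound for dim genes were positive.

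**Figure D2:**
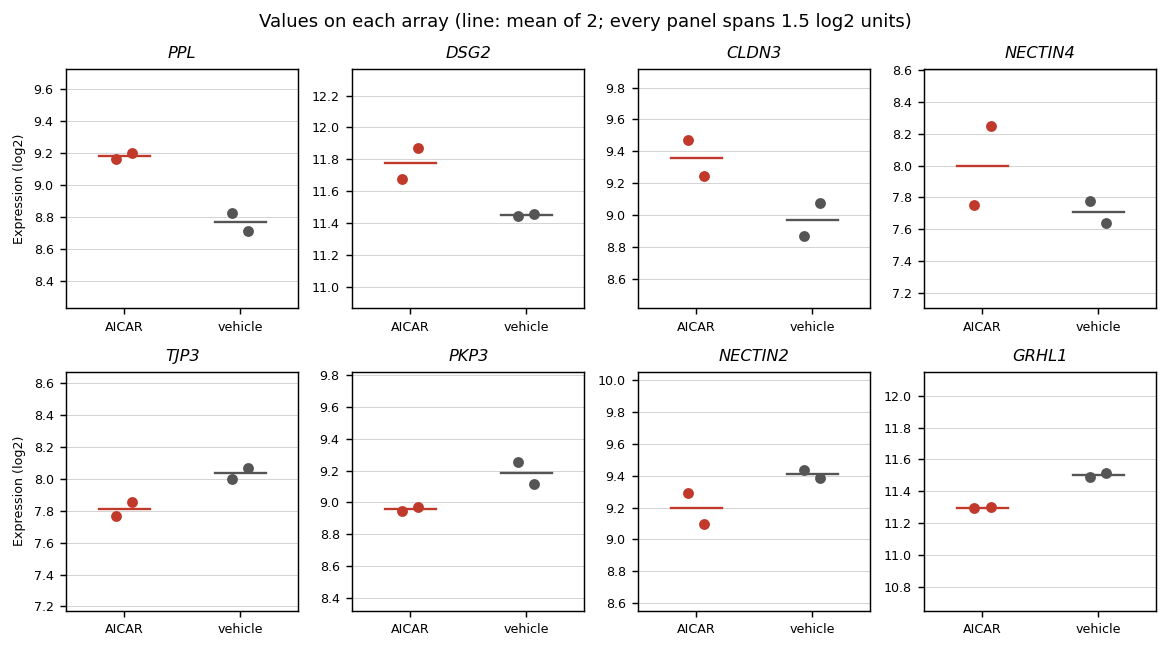
Expression (log2, vertical axis) on each array for 8 members, with AICAR at the left and vehicle at the right of each panel, points for the 2 arrays and a line for their mean. PPL, DSG2 and CLDN3 lie higher with AICAR, TJP3, PKP3, NECTIN2 and GRHL1 lower, and the AICAR arrays of NECTIN4 are apart at 7.75 and 8.25.

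A further list outside the members held desmosome genes and ARVCF, which is not a core desmosome protein. In that list 2 of 4 tested genes rose and 0 fell, against 4.63% and 5.19% of all tested genes. A list of 4 genes is too short to set against these shares. PERP, a tetraspan membrane protein that desmosomes of stratified epithelia need and a target of the p53 family, had 13.21 and 13.39 with AICAR, against 12.71 and 12.78 with vehicle. It was 1.47-fold higher (log2 0.56, SE 0.0856, limma adjusted p = 0.0175), with 4 of its 5 probe sets positive. PKP1, the plakophilin of the upper layers of skin, had 8.56 and 8.64 with AICAR, against 8.16 and 8.20 with vehicle. It was 1.34-fold higher (log2 0.42, SE 0.0699, limma adjusted p = 0.0203), but the average over its 2 probe sets did not pass (limma adjusted p = 0.0589). PERP did not pass without vehicle replicate 1 (limma adjusted p = 0.110) or vehicle replicate 2 (0.0804). PKP1 did not pass without vehicle replicate 1 (0.136), vehicle replicate 2 (0.103) or AICAR replicate 2 (0.0587). ARVCF and DSG3 differed by 0.062 and 0.098, and DSG1 and DSC1 were dim.

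The sequences upstream of desmosome genes are shown because PERP and PKP1 rose and DSG2 had the largest difference among members with a motif match. They are the 250 bases before the gene start on the gene's own strand, from RefSeq, build GRCh38.p14. The motifs ACCGGT, the core bound by Grainyhead factors such as GRHL1 and GRHL2, and CACCTG, an E-box bound by SNAI and ZEB factors, were searched on both strands, and matches are in capitals.
PKP1, chr1:201283256-201283505, plus strand: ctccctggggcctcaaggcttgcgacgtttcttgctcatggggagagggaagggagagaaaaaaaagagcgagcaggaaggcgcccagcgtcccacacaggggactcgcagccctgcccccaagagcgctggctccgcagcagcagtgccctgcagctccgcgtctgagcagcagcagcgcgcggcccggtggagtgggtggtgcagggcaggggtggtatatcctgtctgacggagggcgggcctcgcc
PERP, chr6:138107420-138107669, minus strand: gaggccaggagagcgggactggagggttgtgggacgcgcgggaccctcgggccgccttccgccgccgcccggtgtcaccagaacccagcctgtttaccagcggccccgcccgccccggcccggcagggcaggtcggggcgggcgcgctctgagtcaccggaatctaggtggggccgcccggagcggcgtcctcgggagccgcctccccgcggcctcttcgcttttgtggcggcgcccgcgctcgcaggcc
DSG2, chr18:31497927-31498176, plus strand: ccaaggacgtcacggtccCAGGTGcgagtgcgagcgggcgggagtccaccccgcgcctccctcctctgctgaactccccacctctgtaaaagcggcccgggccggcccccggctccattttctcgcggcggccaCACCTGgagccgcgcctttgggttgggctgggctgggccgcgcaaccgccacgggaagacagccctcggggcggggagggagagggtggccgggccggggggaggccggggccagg
DSG2 was chosen for holding a match, and its 2 E-box matches lay 232 and 116 bases before the start. The PKP1 and PERP sequences held neither motif, and because of that choice no contrast with DSG2 is drawn. Of the members 23 had a promoter in the RefSeq table, and PPL was not among them. CACCTG was found in 8 of the 23, 34.8%, against 17.5% of all 27305 promoters of the same length. The Grainyhead core was in 0 of the 23 and in 1.41% of all promoters. A match is a description of letters, and the members' matches are too few to set against their differences.

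The tight junction genes had 0 members past the threshold. Before adjustment (limma, p under 0.05) 1 of 10 tested was higher and 1 lower, against 12.8% and 13.3% of all tested genes. Among the tested claudins CLDN7 was negative and the others positive, and none passed the threshold. CLDN3, a sealing claudin of simple epithelia, had 9.47 and 9.25 with AICAR, against 8.87 and 9.07 with vehicle. The groups did not overlap, but the nearest AICAR and vehicle arrays were closer together than the arrays within either group. Its difference was 0.39 (95% confidence interval 0.13 to 0.64, limma adjusted p = 0.0748), and the second CLDN3 probe set was at 0.30. CLDN4, often expressed with CLDN3, differed by 0.15 (-0.034 to 0.33) and CLDN12 by 0.21 (-0.012 to 0.44), both with higher AICAR values on both arrays. CLDN7, which binds EPCAM, went the other way, with 11.14 and 11.09 under AICAR, against 11.27 and 11.26 under vehicle, a difference of -0.15 (-0.31 to 0.013, limma adjusted p = 0.223). CLDN8 overlapped between the groups and differed by 0.10 (-0.10 to 0.30). CLDN1 was below the bound for dim genes, with 5.83 and 5.85 under AICAR, against 5.34 and 5.50 under vehicle, and in the fit of all genes its difference of 0.42 had a limma adjusted p of 0.0568.

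Occludin and the scaffolds did not pass the threshold on their brightest probe sets. OCLN, occludin, differed by 0.076 (95% confidence interval -0.13 to 0.28), and the other 3 of its 4 probe sets were negative, the lowest at -0.18. MARVELD2, tricellulin, which seals the corners where cells meet, had 10.68 and 10.75 with AICAR, against 10.78 and 10.68 with vehicle, a difference of -0.014 (-0.19 to 0.16). TJP1, the zonula occludens scaffold that carries claudins, differed by 0.11 (-0.063 to 0.28), and CGN, cingulin, which tethers the junction to myosin, by -0.072 (-0.23 to 0.090). TJP3, an epithelial relative of TJP1, had 7.77 and 7.85 with AICAR, against 8.00 and 8.07 with vehicle. Both probe sets of TJP3 were negative, at -0.22 and -0.32, and although the first did not pass (limma adjusted p = 0.108), their mean did (log2 -0.27, limma adjusted p = 0.0409).

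The tight junction median was 0.088, with 6 positive and 4 negative differences among 10 tested. It was 0.15 without AICAR replicate 1 and 0.021 without AICAR replicate 2, so it moved with which AICAR array was used, and it was -0.0035 when the probe sets of each gene were averaged. Among 15 other tight junction genes tested, 0 rose and 1 fell, against 4.63% and 5.19% of all tested genes. The one that fell was CGNL1, paracingulin, a relative of cingulin, with 7.63 and 7.58 under AICAR, against 8.21 and 8.06 under vehicle. It was 1.45-fold lower (log2 -0.53, SE 0.0779, limma adjusted p = 0.0150). The other probe set of CGNL1 was at 0.0098, and the mean of both did not pass (limma adjusted p = 0.0605). With vehicle replicate 1 left out CGNL1 did not pass (0.0991), nor with vehicle replicate 2 left out (0.0651).

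**Figure D3:**
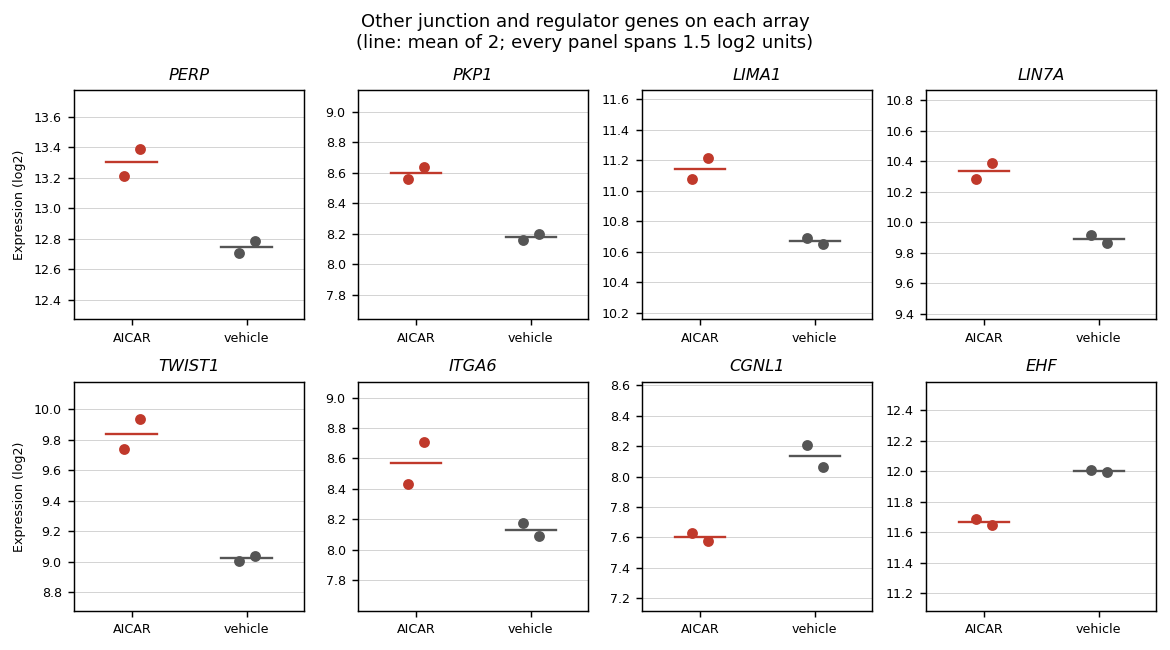
Expression (log2, vertical axis) on each array for 8 junction and regulator genes outside the member list, with AICAR at the left and vehicle at the right of each panel, points for the 2 arrays and a line for their mean. The groups do not overlap in any panel, and TWIST1 has the widest gap, with AICAR arrays at 9.74 and 9.93 and vehicle arrays at 9.01 and 9.04.

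The adherens junction genes had 0 members past the threshold. Before adjustment (limma, p under 0.05) 0 of 7 tested were higher and 2 lower, against 12.8% and 13.3% of all tested genes. CTNNA1, the α-catenin that couples the cadherin complex to actin, had 12.72 and 12.77 with AICAR, against 12.76 and 12.72 with vehicle. On this probe set the 2 groups spanned the same values, and the difference was 0.0032 (95% confidence interval -0.16 to 0.17). Of the 5 CTNNA1 probe sets 2 were positive, and the lowest was at -0.37 (limma adjusted p = 0.143). Their average was -0.082 (limma adjusted p = 0.530). CDH3, P-cadherin, had 8.93 and 8.95 with AICAR, against 9.01 and 8.89 with vehicle, a difference of -0.012 (-0.19 to 0.17). CDH1, E-cadherin, the main cadherin of epithelia and not on the member list, had 13.47 and 13.60 with AICAR, against 13.46 and 13.47 with vehicle. Its difference was 0.067 (-0.11 to 0.25, limma adjusted p = 0.621). CTNNB1, β-catenin, is both a junction protein and the effector of Wnt signalling. It had 11.62 and 11.64 with AICAR, against 11.76 and 11.85 with vehicle, a difference of -0.17 (limma adjusted p = 0.191). The other CTNNB1 probe sets were lower still, at -0.79 and -0.43, and are described below.

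The nectins, immunoglobulin-like adhesion proteins that start cell contacts, had differences of both signs, and none passed on all 4 arrays. NECTIN2 had 9.29 and 9.10 with AICAR, against 9.44 and 9.38 with vehicle, a difference of -0.21 (95% confidence interval -0.42 to -0.0077, limma adjusted p = 0.180), with 4 of 4 probe sets negative. NECTIN4, the target of an antibody-drug conjugate in urothelial cancer, had 7.75 and 8.25 with AICAR, against 7.78 and 7.64 with vehicle. Its AICAR arrays differed by more than the group means did, and the difference of 0.29 (-0.089 to 0.67, limma adjusted p = 0.300) passed only without AICAR replicate 1 (log2 0.54, limma adjusted p = 0.0348). NECTIN1 differed by 0.043 (-0.14 to 0.22), and AFDN, afadin, which ties nectins to actin, by -0.051 (-0.25 to 0.15). The adherens junction median was -0.012 over 7 tested genes, 3 positive and 4 negative, and 0.015 after quantile normalization.

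Side by side, the medians were 0.088 for tight junction, -0.012 for adherens junction and 0.092 for desmosome genes, beside 0.0097 over all genes tested. Each group held genes of both signs, and the differences between these medians were not tested. Of 11 other adherens junction genes tested, 1 rose and 0 fell, against 4.63% and 5.19% of all tested genes. The gene that rose was LIMA1, an actin-binding LIM protein that links the cadherin and catenin complex to actin. It had 11.08 and 11.21 with AICAR, against 10.69 and 10.65 with vehicle. LIMA1 was 1.39-fold higher (log2 0.47, SE 0.0769, limma adjusted p = 0.0194), and each of its 3 probe sets was positive. It did not pass without AICAR replicate 2 (0.0550), vehicle replicate 1 (0.105) or vehicle replicate 2 (0.110).

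EPCAM, a surface adhesion protein of most carcinomas, had 12.91 and 13.13 with AICAR, against 12.82 and 12.95 with vehicle, and differed by 0.13 (95% confidence interval -0.10 to 0.37). PARD3, which recruits the atypical protein kinase C complex to the junction, differed by 0.069 (-0.10 to 0.24). Of its 4 probe sets 3 were positive, and 221527_s_at was at -0.37 (limma adjusted p = 0.0696). PATJ, the large PDZ scaffold of the Crumbs complex, differed by -0.092 (-0.36 to 0.18). On the brightest probe set none of EPCAM, PARD3 and PATJ passed the limma test, also at an unadjusted p under 0.05. Of 23 other polarity genes tested 1 rose and 0 fell, against 4.63% and 5.19% of all tested genes. LIN7A, a small PDZ protein of the Crumbs and Scribble-type scaffolds, had 10.29 and 10.39 with AICAR, against 9.92 and 9.87 with vehicle. It was 1.36-fold higher (log2 0.45, SE 0.0733, limma adjusted p = 0.0199), and each of its 4 probe sets was positive, but their average did not pass (limma adjusted p = 0.107). LIN7A did not pass without AICAR replicate 2 (0.0578), vehicle replicate 1 (0.106) or vehicle replicate 2 (0.117).

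Of the 6 tested genes of hemidesmosomes and basal adhesion, 0 passed, and 2 were higher at an unadjusted p under 0.05 (limma), against 12.8% of all tested genes. ITGA6, the α6 integrin that binds laminin, was at the threshold, with 8.43 and 8.71 under AICAR, against 8.18 and 8.09 under vehicle (log2 0.44, limma adjusted p = 0.0503). It passed after quantile normalization (0.0276) and as the average of its 2 probe sets (log2 0.38, limma adjusted p = 0.0166). DST, the plakin family linker of the hemidesmosome, differed by 0.25 (limma adjusted p = 0.177).

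The epithelial regulators had 0 of 4 tested members past the threshold, 3 of them with negative differences. GRHL1, a Grainyhead transcription factor that activates desmosomal cadherin genes in mouse skin, had 11.30 and 11.30 with AICAR, against 11.49 and 11.52 with vehicle. The replicates of GRHL1 were close together and the groups were apart, but the difference of -0.21 (95% confidence interval -0.36 to -0.046) had a limma adjusted p of 0.109. Its relative GRHL2, which controls claudin and cadherin genes in many epithelia, differed by -0.076 (-0.27 to 0.11), the splicing regulator ESRP1, which sets epithelial isoforms, by -0.10 (-0.28 to 0.070) and the zinc finger repressor OVOL1 by 0.095 (-0.14 to 0.33). Of 7 other epithelial regulators tested 0 rose and 1 fell, against 4.63% and 5.19% of all tested genes, and 4 were lower at an unadjusted p under 0.05, against 13.3%. When the probe sets of each gene were averaged, GRHL3, otherwise dim, was also tested (log2 0.017, limma adjusted p = 0.930). In that fit 4 genes of this list were lower past the threshold (limma), where 692 of the 13842 genes were. They were ELF3 (log2 -0.42, adjusted p = 0.0133), TFAP2C (-0.35, 0.0212), OVOL2 (-0.36, 0.0252) and EHF (-0.43, 0.0361). On the brightest probe set ELF3, TFAP2C and OVOL2 did not pass. There ELF3 was at -0.11 (limma adjusted p = 0.482) with overlapping groups, TFAP2C at -0.25 (0.0736) and OVOL2 at -0.26 (0.0617). EHF, an ETS factor of epithelial cells, had 11.69 and 11.65 with AICAR, against 12.01 and 12.00 with vehicle. It was 1.26-fold lower (log2 -0.33, SE 0.0664, limma adjusted p = 0.0307), and each of its 6 probe sets was negative, down to -0.63. EHF did not pass without any one of the 4 arrays, with limma adjusted p-values of 0.0583 to 0.181, nor with dim genes kept in the fit (0.0656).

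The factors that repress epithelial genes in an epithelial-mesenchymal transition were listed for comparison. TWIST1 had 9.74 and 9.93 with AICAR, against 9.01 and 9.04 with vehicle. It rose 1.76-fold (log2 0.81, SE 0.0858, limma adjusted p = 0.00776) on its only probe set, and did not pass without vehicle replicate 1 (0.0545) or vehicle replicate 2 (0.0510). SNAI1 differed by 0.16 (95% confidence interval -0.050 to 0.37, limma adjusted p = 0.301) and ZEB1 by -0.16 (-0.43 to 0.10, limma adjusted p = 0.397). ZEB2, SNAI2, SNAI3 and TWIST2 were dim. Beside the rise of TWIST1, CDH1 and the members of the junction list showed the values given above. On the brightest probe sets 0 members were called lower, against 5.19% of all tested genes. When probe sets were averaged, 3 members were lower past the threshold (limma), where 692 of the 13842 genes were. Whether these values are tied to TWIST1 was not tested.

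For 4 members a further probe set passed the threshold where the brightest one did not. In CTNNB1, GRHL1 and ESRP1 every probe set was negative. The 33 tested members had 38 further probe sets over the bound, and when every probe set was fitted separately, 4 of these fell and 0 rose, against 5.9% and 2.33% of such further probe sets over all genes. They belonged to CTNNB1, PKP4, GRHL1 and ESRP1, 1 in each gene. The one of PKP4 was dim with AICAR and passed the filter only through its vehicle arrays, so that it had to differ. Among the 37 that were over the bound in both groups 3 fell and 0 rose, against 5.78% and 2.26% of such probe sets over all genes. Whether these counts differ from the shares was not tested. The second CTNNB1 probe set, 1554411_at, had 7.79 and 7.81 with AICAR, against 8.59 and 8.59 with vehicle. It was 1.73-fold lower (log2 -0.79, SE 0.0719, limma adjusted p = 0.00999), while the brightest CTNNB1 probe set differed by -0.17 and the remaining one by -0.43. The GRHL1 probe set 1552685_a_at had 8.62 and 8.60 with AICAR, against 9.27 and 9.07 with vehicle (log2 -0.56, limma adjusted p = 0.0257). The ESRP1 probe set 219121_s_at had 10.45 and 10.47 with AICAR, against 10.86 and 10.85 with vehicle (log2 -0.39, limma adjusted p = 0.0317). The PKP4 probe set 214874_at had 5.91 and 6.20 with AICAR, a mean of 6.06 under the bound of 6.11, against 6.84 and 6.63 with vehicle (log2 -0.68, limma adjusted p = 0.0310). In all 4 the AICAR arrays were below both vehicle arrays. For PKP4 this went against its brightest probe set, which was positive.

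**Figure D4:**
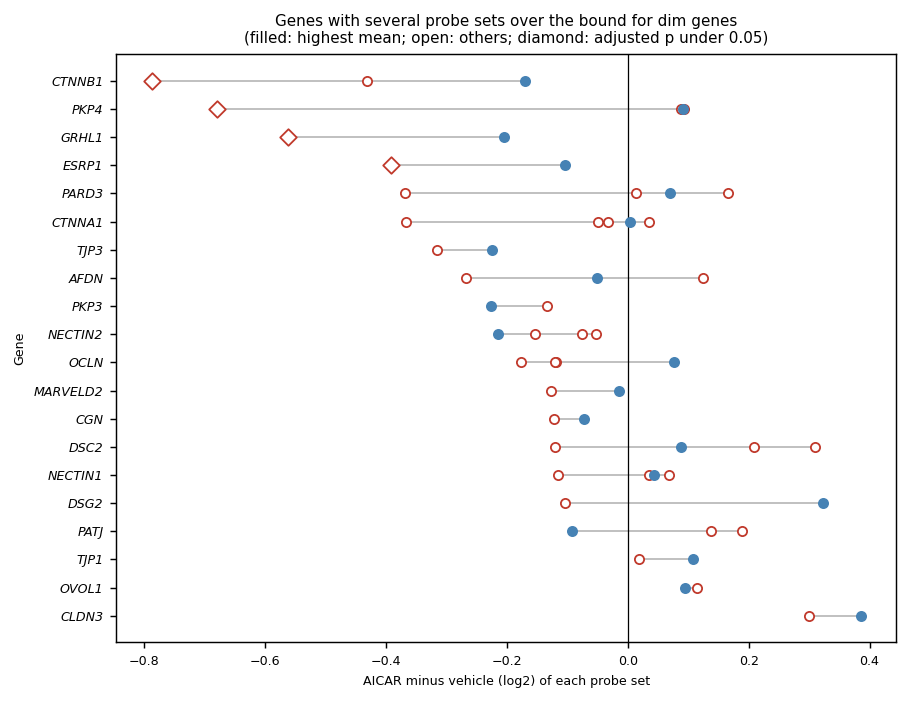
AICAR minus vehicle difference (log2, horizontal axis) of each probe set over the bound, for the 20 genes with several. The filled point of each gene is its brightest probe set, open points are the others, and the 4 diamonds, for CTNNB1, PKP4, GRHL1 and ESRP1, fell at an adjusted p under 0.05, that of PKP4 being dim with AICAR.

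Whether probe sets of the same gene differed from each other was tested on the difference between each further probe set and the brightest one, over 11026 such pairs on the array. Of 38 pairs in these members 1 passed in the lower and 0 in the higher direction, against 0.662% and 0.408% of all pairs, and 7 and 0 did so at an unadjusted p under 0.05, against 10.6% and 7.83%. The pair that passed was that of CTNNB1, where 1554411_at fell by 0.62 more than the brightest probe set (SE 0.0953, limma adjusted p = 0.0466). The pair of PKP4, whose further probe set was dim with AICAR, was at -0.77 and did not pass (limma adjusted p = 0.0535). The pairs of PARD3 at -0.44, GRHL1 at -0.36 and ESRP1 at -0.29 did not pass (limma adjusted p = 0.102, 0.167 and 0.186). Probe sequences were not used here, so which part of each transcript a probe set reads is not given. With a vehicle array left out, 0 of the members' probe sets passed. Without AICAR replicate 1 only that of CTNNB1 fell, and without AICAR replicate 2 those of CTNNB1 and PKP4 did, while the difference of the CTNNB1 probe set stayed between -0.80 and -0.78. When the probe sets of each gene were averaged, CTNNB1 (log2 -0.46, limma adjusted p = 0.0125), GRHL1 (-0.38, 0.0188) and TJP3 were lower past the threshold and PPL was higher.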

How the data were processed

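RNA of BT474 cells was labelled with biotin and hybridised, 1 array per sample, per the labels' protocols. The deposited values are log2 expression per probe set, normalized by the authors with Affymetrix Expression Console, per the submitters' processing notes; no source used here gives its version, algorithm or background correction. No depth applies to arrays; the 4 arrays set the precision, with a median SE of 0.0772.

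Probe sets with 1 listed symbol were used, 41097 of 54675, with symbols updated through the RefSeq gene table (GRCh38.p14, names only). Each gene took its brightest probe set. Genes with a mean under the 30th percentile (log2 6.11) were called dim. Differences were fitted with limma 3.58.1 in R 4.3.3 (lmFit, eBayes, no trend, two-sided), adjusted by Benjamini-Hochberg over all genes fitted; rose and fell mean an adjusted p under 0.05. With 2 against 2 arrays an exact permutation p cannot go below 0.333, so none was used.

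Members and lists were chosen with earlier results of these data known. Of the other lists, called genes (up to 6 a list), or else the 2 with the largest difference, are named, with all mesenchymal transition factors; CDH1, ARVCF, DSG3, ELF3, OVOL2, TFAP2C and the marker genes were added after values were seen, as were the counts over the bound in both groups, the fits per probe set and between probe sets and the choice of DSG2 as a promoter to show. Replicate numbers shared across groups were checked as pairs. Deviations of arrays with the same number correlated at -0.0721, and the main fit used no pairing. That correlation cannot tell whether arrays were processed in pairs. Alternatives were other dim filters, quantile normalization, median centring, a trend with robust variances, the mean of probe sets, no _x_at probe sets, a replicate block and each array left out. On simulated data (13842 genes, 200 changed, 20 simulations of AICAR against vehicle) the fit recovered 51.4% of changes of 0.5 and 97.6% of changes of 1 (log2). Of the simulated calls 4.57% were false. The simulated noise followed the fit's own assumptions, with fewer changed genes than were called in the data. These shares therefore cannot tell how many calls on the real arrays are false.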

Additional observations from a re-analysis of the deposited data

How the results depend on the processing

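Among the 33 tested members, the count that rose, 1, was 3 with the filter at the 50th percentile and with a trend and robust variances and 2 after quantile normalization; it was 0 to 3 with 1 array left out. The count that fell, 0, was 2 with a trend and robust variances, 3 when probe sets were averaged and 4 with every probe set fitted separately, an alternative added after seeing the data (3 without PKP4, whose probe set was dim with AICAR). Of the other junction genes, 4 rose and 2 fell; these counts were 7 and 5 with a trend and robust variances, and 0 to 8 and 0 to 2 with 1 array left out. Those that fell were 1 without the dim filter, 4 with the filter at the 50th percentile and 5 when probe sets were averaged. Over all genes, 641 rose and 718 fell; the counts were 368 and 355 without the dim filter, 1107 and 1359 with a trend and robust variances, and 69 to 553 and 30 to 432 with 1 array left out. Quantile normalization gave 854 and 624. The medians with 1 array left out were 0.021 to 0.15 for tight junction, -0.073 to 0.00042 for adherens junction and 0.055 to 0.14 for desmosome genes, and the tight junction median was -0.0035 when probe sets were averaged. The replicate block called 1 member higher and 0 lower, and 577 and 586 of all genes, and changed no member's call.

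Signs turned in genes that passed in neither setting. When probe sets were averaged these were OCLN (-0.085), CTNNA1 (-0.082), PKP4 (-0.13), PARD3 (-0.030) and PATJ (0.072). After quantile normalization they were MARVELD2 (0.020), CDH3 (0.028) and PKP2 (0.017). CTNNA1 was -0.0087 after median centring and -0.032 without _x_at probe sets. With 1 array left out the differences ran from -0.013 to 0.17 for OCLN, -0.061 to 0.033 for MARVELD2, -0.019 to 0.025 for CTNNA1 and -0.073 to 0.048 for CDH3. They ran from -0.0064 to 0.092 for NECTIN1, -0.13 to 0.032 for AFDN, -0.048 to 0.0094 for PKP2, -0.23 to 0.049 for PATJ and -0.033 to 0.22 for OVOL1. The cause of these changes was not tested. The number of arrays and the unknown background correction limit all of these values, and small changes of dim genes may be missed.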
